A study of Mus musculus with 12 samples.

Results

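Gja1, Gpr37l1, Fabp7 and S100b are genes commonly used to mark astrocytes, and their transcripts were followed here in RNA from sorted mouse oligodendrocytes. They were chosen by name, as the rows of the deposited count table whose Entrez Gene identifiers (14609 for Gja1, 171469 for Gpr37l1, 12140 for Fabp7 and 20203 for S100b) carry these symbols. All 4 had a row among the 2398 genes analysed. The cells came from brains of C57BL/6 mice, given as postnatal day 60 in one field of the labels and as 8 weeks in another, after papain digestion, a Percoll gradient and sorting for GFP, with dead cells gated out by propidium iodide. All animals carried the Ndrg1-EGFP reporter, which labels myelinating oligodendrocytes, and floxed Lmna, the gene of lamins A and C. The genotype Cnp+/+;Lmnafl/fl is called WT here and CnpCre/+;Lmnafl/fl is called KO. In KO, Cre is expressed from a Cnp allele, Cnp being an oligodendrocyte gene, so KO also has fewer intact Cnp copies than WT and its Cre is not directed at astrocytes. Each genotype had 3 biological replicates (WT1 to WT3 and KO1 to KO3), and each replicate had 2 libraries. The labels do not say whether a replicate was 1 animal or a pool, so p-values measure only the spread between these samples.

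Astrocytes are the glial cells that enwrap synapses and vessels, take up glutamate and potassium, and are joined to each other and to oligodendrocytes by gap junctions. Gja1 encodes connexin43, the main gap junction protein of astrocytes, which fibroblasts and cells of vessel walls also make. Gpr37l1 encodes a G protein-coupled receptor of astrocytes that is also found in oligodendrocyte progenitors. Fabp7 encodes the brain fatty acid-binding protein of radial glia, astrocytes and progenitors. S100b encodes a calcium-binding protein that astrocytes share with part of the oligodendrocyte lineage. The name astrocyte marker is thus a matter of degree for these genes.

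The 250 bases before the start of each gene are shown because the results below turn on whether the 4 transcripts move together. They are RefSeq sequences of build GRCm38.p6, the assembly also called mm10, on the strand of the gene, at chr10:56377050-56377299 (plus strand) for Gja1, chr1:135167682-135167931 (minus strand) for Gpr37l1, chr10:57784673-57784922 (plus strand) for Fabp7 and chr10:76253586-76253835 (plus strand) for S100b. Capitals mark letters of the motifs searched on both strands.
Gja1: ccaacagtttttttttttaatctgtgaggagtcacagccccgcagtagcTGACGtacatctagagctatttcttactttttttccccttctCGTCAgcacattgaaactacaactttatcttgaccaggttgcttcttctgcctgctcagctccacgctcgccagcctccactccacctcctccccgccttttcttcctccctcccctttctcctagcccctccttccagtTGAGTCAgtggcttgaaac
Gpr37l1: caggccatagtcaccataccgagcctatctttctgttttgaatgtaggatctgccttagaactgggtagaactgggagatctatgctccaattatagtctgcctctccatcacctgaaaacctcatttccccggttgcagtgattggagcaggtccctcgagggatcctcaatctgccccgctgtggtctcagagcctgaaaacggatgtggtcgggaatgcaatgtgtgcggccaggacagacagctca
Fabp7: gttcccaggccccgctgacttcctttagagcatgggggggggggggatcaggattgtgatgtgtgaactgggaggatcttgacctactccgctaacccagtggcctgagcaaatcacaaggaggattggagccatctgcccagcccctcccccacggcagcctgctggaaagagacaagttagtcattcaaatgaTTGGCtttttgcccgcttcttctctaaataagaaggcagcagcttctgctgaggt
S100b: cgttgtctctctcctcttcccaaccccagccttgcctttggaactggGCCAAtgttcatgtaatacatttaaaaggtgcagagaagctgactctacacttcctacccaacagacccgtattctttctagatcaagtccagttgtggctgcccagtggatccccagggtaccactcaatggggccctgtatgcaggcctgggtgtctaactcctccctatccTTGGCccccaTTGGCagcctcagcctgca

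The motifs searched were TGANTCA (AP-1), TGACG (core of a CRE), TTGGC (arm of an NFI site) and ACAAAG (SOX), chosen after the sequences were seen, and no match overlapped another. TGANTCA was found in Gja1, beginning 19 bases before the start, and in 6.75% of 32851 RefSeq windows of the same length. TGACG was found in Gja1, on either strand, beginning 201 and 159 bases before the start, and in 17.8% of all windows. TTGGC was found in Fabp7, 55 bases before the start, and in S100b, 203, 29 and 19 bases before it, and in 41.5% of all windows. ACAAAG was in none of the 4 windows and in 16.5% of all windows. The window of Gpr37l1 held none of these letters. These matches describe the sequence only.

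The 4 windows had a GC content between 50.0% and 54.8%, beside a median of 52.4% over all windows. In RefSeq, Gja1 lies on chromosome 10 from 56377300 to 56390419, Fabp7 on chromosome 10 from 57784923 to 57788450, S100b on chromosome 10 from 76253836 to 76261319 and Gpr37l1 on chromosome 1 from 135160250 to 135167681. In GENCODE M21 no gene overlapped Gja1, Gpr37l1 or Fabp7, while the 3' part of S100b shares 1731 bases with Dip2a on the other strand. Dip2a stood between 2636 and 3888 CPM. No source used here says whether strand was used in counting, so it is not known how reads of this shared stretch were assigned. Of all stretches of 50 bases, the length of a read, in the longest GENCODE transcript, 7 of 3840 in Gja1 occurred in transcripts of other genes and 0 in the other 3 genes.

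The table covered 1358 genes of chromosome 1 and 868 of chromosome 10 with a known symbol, and held between 3694551 and 6093336 counts per replicate, which is part of each library and not its depth. Lmna and Cnp are not analysed here, so the genotype was not checked at its target. Of the oligodendrocyte markers Adamts4 and Nfasc were analysed, and they stood between 6116 and 9696 CPM and between 4205 and 7401 CPM in the 6 replicates. CPM is the count of a gene brought to a fixed total over the tested genes of this table, with TMM scaling between replicates. Intervals on single replicates are exact Poisson or binomial 95% intervals and cover counting error only.

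All 4 transcripts were found in every replicate, at levels that set S100b apart from the others. The lowest summed count of any of the 4 in any replicate was 153, for Fabp7 in WT2. S100b had a mean of 4996 CPM over the 6 replicates and a higher mean than 97.7% of the 1484 genes that passed the filter on low counts. Gja1 averaged 306 CPM, above 63.9% of genes, Gpr37l1 averaged 239 CPM, above 59.0%, and Fabp7 averaged 49.2 CPM, above 35.2%. All 4 passed the filter, and with counts in every replicate of both genotypes none passed it through 1 genotype alone. Per kilobase of the longest GENCODE transcript, S100b ranged from 2011 to 4507 CPM per kb. On that scale Gpr37l1 ranged from 25.8 to 195, Gja1 from 23.8 to 189 and Fabp7 from 39.3 to 87.5 CPM per kb. The last 3 ranges overlapped, so these genes have no order in level beyond the spread of the replicates. Every replicate had more S100b per kb than any replicate had of the other 3.

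Gja1, the connexin, stood at 372 CPM in WT1, 294 in WT2, 92.7 in WT3, 737 in KO1, 186 in KO2 and 158 in KO3. KO1 was highest and WT3 lowest, a ratio of 7.94, with the other 4 replicates in between and the genotypes overlapping. The counting intervals of the extremes were far apart, from 708 to 766 CPM in KO1 and from 84.9 to 101 CPM in WT3.

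Gpr37l1, the receptor, stood at 289 CPM in WT1, 58.6 in WT2, 179 in WT3, 187 in KO1, 442 in KO2 and 277 in KO3. KO2 was highest and WT2 lowest, a ratio of 7.54, and the genotypes overlapped. KO1 and WT3, the extremes of Gja1, had Gpr37l1 levels whose counting intervals overlapped, from 173 to 202 CPM and from 168 to 190.1 CPM.

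Fabp7, the fatty acid-binding protein, stood at 77.0 CPM in WT1, 38.0 in WT2, 34.6 in WT3, 47.0 in KO1, 53.5 in KO2 and 44.9 in KO3. WT1 stood above the other 5, which lay within 34.6 to 53.5 CPM. S100b, the calcium-binding protein, stood at 5420 CPM in WT1, 2984 in WT2, 5599 in WT3, 3525 in KO1, 6689 in KO2 and 5759 in KO3. WT2 and KO1, 1 replicate of each genotype, were low, and the other 4 lay between 5420 and 6689 CPM.

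**Figure D1:**
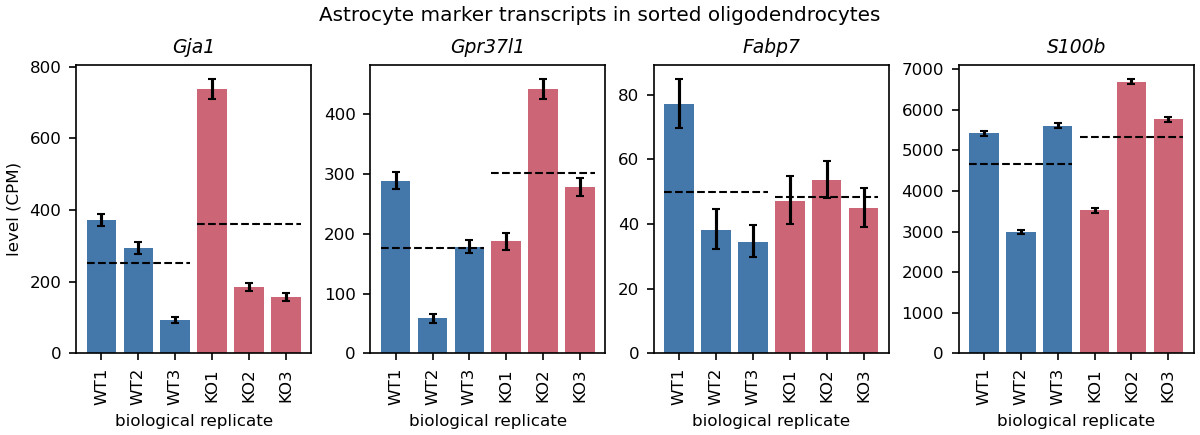
Level of each marker transcript (CPM, linear axes from 0, one panel per gene) in the 6 biological replicates, WT in blue and KO in red, with exact Poisson 95% intervals as error bars and genotype means as dashed lines. Gja1 peaks in KO1 at 737 CPM, Gpr37l1 in KO2 at 442, Fabp7 in WT1 at 77.0 and S100b in KO2 at 6689 CPM.

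The replicate differences were present in both libraries of a replicate. Gja1 had 1280 and 1306 reads in the libraries of KO1 and 250 and 265 in those of WT3. Over the 24 pairs of libraries, 4 genes in 6 replicates, an exact binomial test found none that differed after Benjamini-Hochberg adjustment, with the smallest adjusted p of 0.0655 for Fabp7 in KO2, at 142 and 196 reads. Within a genotype, the SD of log2(CPM + 1) was 1.14 for Gja1 and 0.94 for Gpr37l1, against a median of 0.25 over all genes tested. Gja1 varied more than 93.5% of those genes and Gpr37l1 more than 88.3%. S100b, with an SD of 0.50, varied more than 72.8%, and Fabp7, with 0.45, more than 70.1%.

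The ratio of Gja1 to Gpr37l1 reads within a replicate needs no scaling between replicates. It was 1.29 in WT1 (95% interval 1.205 to 1.379), 5.01 in WT2 (4.35 to 5.78), 0.519 in WT3 (0.466 to 0.578), 3.94 in KO1 (3.61 to 4.29), 0.421 in KO2 (0.393 to 0.450) and 0.569 in KO3 (0.520 to 0.622). WT2 and KO1 thus had several Gja1 reads for each Gpr37l1 read, and WT3, KO2 and KO3 had fewer Gja1 than Gpr37l1 reads, so that the ratio spanned 11.9-fold with both genotypes on each side of 1. Gja1 reads per S100b read spanned 12.6-fold, from 0.0166 in WT3 to 0.209 in KO1. Gpr37l1 reads per S100b read spanned 3.36-fold, from 0.0196 in WT2 to 0.0661 in KO2. The 4 genes did not keep 1 ratio over the replicates, so the replicate richest in astrocyte marker RNA differed with the gene: KO1 by Gja1, WT1 by Fabp7, and KO2 by Gpr37l1 and S100b.

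**Figure D2:**
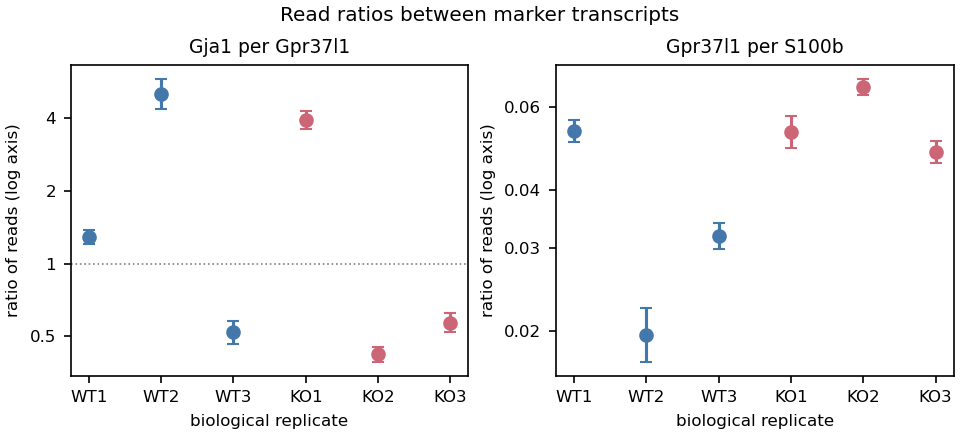
Reads of Gja1 per read of Gpr37l1 and reads of Gpr37l1 per read of S100b (log axes) in each replicate, WT in blue and KO in red, with exact binomial 95% intervals. The first ratio runs from 0.421 in KO2 to 5.01 in WT2, and its dotted line marks equal numbers of reads.

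Co-variation was measured on log2(CPM + 1) over the 6 replicates for the 6 pairs of genes, and no pair passed at an adjusted p under 0.05. By Pearson r the closest pair was Gpr37l1 and S100b, with r = 0.87 (exact permutation p = 0.0139, two-sided, 0.0833 adjusted over 6 pairs). Its Spearman rho was 0.71 (exact permutation p = 0.136, adjusted 0.3625). Without WT2 and KO1, the replicates farthest from the median of S100b, r was 0.76, and without WT2 and KO2, the farthest in Gpr37l1, it was 0.50. As deviations from the genotype means the pair had r = 0.91.

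Gja1 and Gpr37l1 had r = -0.16 (exact permutation p = 0.772, adjusted 0.772) and rho = 0.086 (exact p = 0.919, adjusted 0.919), and r = -0.40 without WT3 and KO1, the farthest in Gja1, but 0.045 without WT2 and KO2. Gja1 and S100b had r = -0.61 (exact permutation p = 0.226, adjusted 0.456) and rho = -0.60 (exact p = 0.242, adjusted 0.3625), and r = -0.48 without WT3 and KO1 and -0.13 without WT2 and KO1. Gja1 and Fabp7 had r = 0.44 (exact permutation p = 0.40, adjusted 0.60) and rho = 0.60 (exact p = 0.242, adjusted 0.3625), and r = 0.45 without WT3 and KO1, but -0.12 without WT1 and WT3, the farthest in Fabp7. Gja1 therefore showed no relation to the other 3 genes that these replicates could resolve.

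Fabp7 and Gpr37l1 had r = 0.58 (exact permutation p = 0.228, adjusted 0.456) and rho = 0.83 (exact p = 0.0583, adjusted 0.35), the largest rho of the 6 pairs. Their r was 0.72 without WT2 and KO2 and 0.94 without WT1 and WT3. Fabp7 and S100b had r = 0.33 (exact permutation p = 0.536, adjusted 0.643) and rho = 0.20 (exact p = 0.714, adjusted 0.857), and r = 0.78 without WT1 and WT3, but -0.066 without WT2 and KO1. With 6 replicates the smallest p that the permutations can give was 0.00139 for r and 0.00278 for rho.

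**Figure D3:**
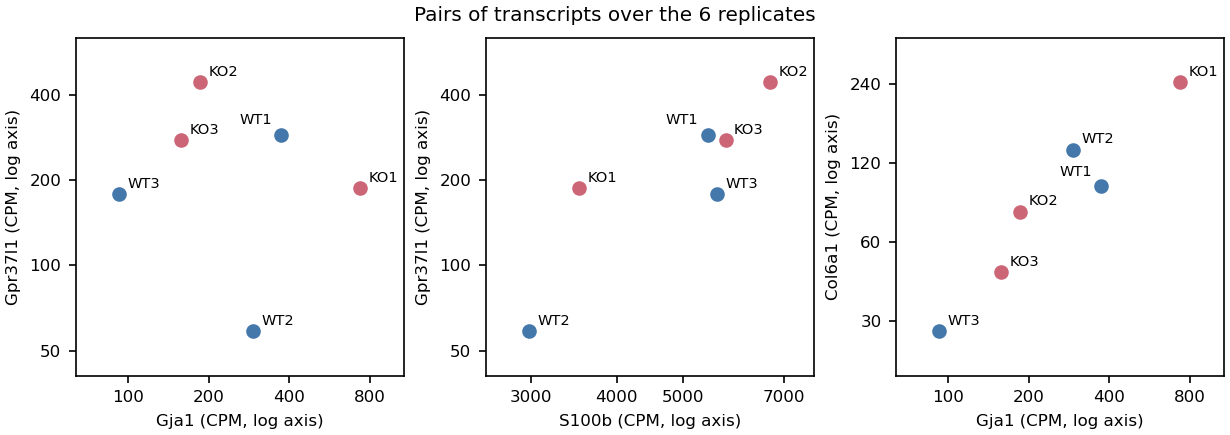
Levels of pairs of transcripts in the 6 replicates (CPM, log axes, WT in blue and KO in red), for Gpr37l1 against Gja1, Gpr37l1 against S100b and Col6a1 against Gja1. The first panel shows no common trend (r = -0.16), the second a rise from WT2 to KO2 (r = 0.87) and the third a rise from WT3 to KO1 (r = 0.96).

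The genes with the most similar course over the 6 replicates were sought among the 1107 other tested genes with a mean of at least 20 CPM, by Pearson r of log2(CPM + 1), as a description with no test. For Gja1 they were Crispld1 (r = 0.98), which encodes a secreted protein, 2900092D14Rik (0.96) and Col6a1 (0.96), which encodes a chain of collagen VI. Col6a1 stood at 98.2 CPM in WT1, 135 in WT2, 27.6 in WT3, 244 in KO1, 78.5 in KO2 and 46.3 in KO3, and was thus highest and lowest in the same replicates as Gja1. For Gpr37l1 they were Lrrc75b (0.98), Ctdsp1 (0.97), a phosphatase of RNA polymerase II, and Neu4 (0.97), a sialidase that stood at 0 CPM in WT2 and 70.4 CPM in KO2. For S100b they were Mfsd4b1 (0.99), Nckap5 (0.99) and Lrrc20 (0.98). For Fabp7 they were Rpf2 (0.97), a factor of ribosome production, Fig4 (0.95), a phosphoinositide phosphatase, and Ascc1 (0.94). An r takes no account of the size of a change, and some of these genes varied little. Ctdsp1 stood between 91.4 and 109 CPM, Fig4 between 483 and 540 CPM and 2900092D14Rik between 78.2 and 128 CPM. Crispld1, by contrast, ran from 15.8 CPM in WT3 to 82.3 CPM in KO1. No marker was among the first 3 for another. Gpr37l1 was at place 34 for S100b, and S100b at place 25 for Gpr37l1. S100b was at place 925 of 1107 for Gja1.

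Marker lists of other cell types were then set beside the 4 genes, as the mean log2(CPM + 1) of each list's tested genes. This gave 32 relations, 4 genes by 8 lists, added after the counts were seen. By Pearson r, 1 of 32 passed at an adjusted p under 0.05, S100b with the list of oligodendrocyte progenitor genes (5 genes), with r = 0.95 (exact permutation p = 0.00139, the smallest possible, adjusted 0.0444) and rho = 1.0 (exact p = 0.00278, the smallest possible, adjusted 0.0444). Without WT2 and KO1, r was 0.87. The adjusted p of r was 0.0889 when no normalization factors were used. The call on rho was lost with a pseudocount of 10 CPM (adjusted p = 0.0889), without normalization factors (rho = 0.94, adjusted p = 0.267) and in the first libraries alone (adjusted p = 0.0889). With that pseudocount and in the first libraries rho itself was still 1.0. Only its adjusted p rose there, which depends on all 32 relations.

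The progenitor genes were at low levels. Tnr, a matrix glycoprotein of progenitors, stood at 6.84 CPM in WT1, 0.497 in WT2, 12.4 in WT3, 1.42 in KO1, 25.2 in KO2 and 8.69 in KO3. Marcks, a substrate of protein kinase C, stood at 82.7 CPM in WT1, 10.2 in WT2, 48.1 in WT3, 25.9 in KO1, 92.8 in KO2 and 131 in KO3. WT2 and KO1, the replicates low in S100b, were the lowest in both. Pcdh15, a protocadherin of progenitors and the list's most abundant gene, stood between 114 and 216 CPM and was lowest in WT1, and Serpine2, a protease inhibitor, stood between 43.5 and 152 CPM. Gpr37l1 had r = 0.91 with this list (exact permutation p = 0.0167, adjusted 0.178), rho = 0.71 (exact p = 0.136, adjusted 0.516), and r = 0.33 without WT2 and KO2, so that relation rested on those replicates.

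The list of immediate early genes, which tissue dissociation can induce, had r = 0.92 with S100b (exact permutation p = 0.0236, adjusted 0.189) and rho = 0.71 (exact p = 0.136, adjusted 0.516). That r was 0.19 without WT2 and KO1, on which it rested. The 4 genes of that list summed to 285 CPM in WT2 and 393 in KO1, and to between 1208 and 3564 CPM in the other 4 replicates. Egr2, a zinc finger factor that Schwann cells also use, stood at 78.5 CPM in WT2 and 49.8 in KO1, against 485 to 1315 in the others. Btg2, an antiproliferative gene, stood at 129.9 and 242 CPM in WT2 and KO1, against 557 to 1855. The replicates low in S100b were thus low in immediate early transcripts, and the part of dissociation or of RNA quality in the S100b level was not tested.

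Gja1 moved with the list of mural cell and fibroblast genes (8 genes), with rho = 1.0 (exact permutation p = 0.00278, the smallest possible, adjusted 0.0444 over 32 relations) and r = 0.89 (exact p = 0.00972, adjusted 0.156), and r was 0.75 without WT3 and KO1. This order was the only other relation of the 32 to pass, and it did not pass with a pseudocount of 10 CPM (rho = 0.83, adjusted p = 0.594), without normalization factors (adjusted p = 0.267) or in the first libraries alone (adjusted p = 0.178). Fn1, fibronectin, stood at 99.2 CPM in WT1, 196 in WT2, 38.5 in WT3, 330 in KO1, 103 in KO2 and 78.0 in KO3. Dcn, the proteoglycan decorin of fibroblasts, was likewise lowest in WT3, at 28.8 CPM, and highest in KO1, at 181 CPM. Col3a1, a fibrillar collagen, stood at 16.2 CPM in WT3 and 123 CPM in KO1. Other genes of the list did not follow Gja1. Col6a2, the most abundant, stood at 397 CPM in KO1 and 711 in WT3, and Col5a2, a fibrillar collagen chain, between 23.4 and 44.2 CPM with its highest level in KO2. Lum, the proteoglycan lumican, was highest in WT2, at 14.7 CPM against 4.56 in KO1, and Col18a1, a basement membrane collagen, stood at 5.94 CPM in WT3, 3.70 in KO1 and 0.248 in WT2. When either Lum or Col18a1 was left out of the list, its rho with Gja1 was 0.83. Rgs5, a defining gene of pericytes, had at most 3 counts in any replicate. The list as a whole summed to between 852 and 1069 CPM in WT and between 1001 and 1313 CPM in KO, and 3 of its 9 genes in the table were at 0 in at least 1 replicate. The part of vessel or meningeal cells in the Gja1 level was not tested.

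**Figure D4:**
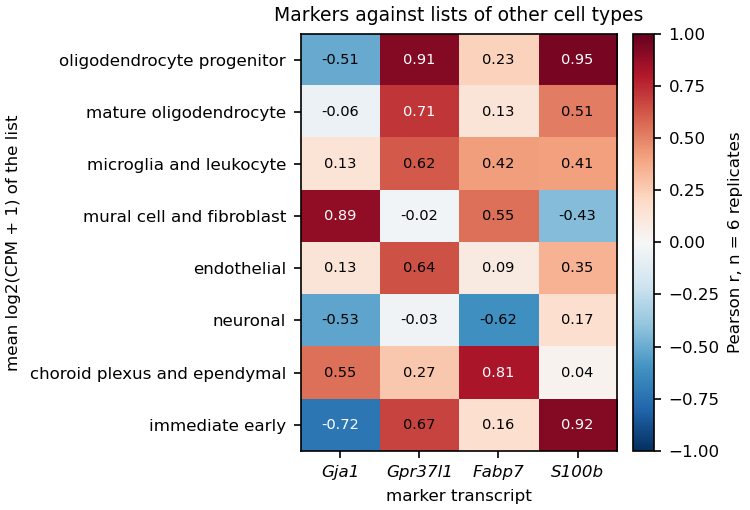
Pearson r over the 6 replicates between log2(CPM + 1) of each marker transcript (columns) and the mean log2(CPM + 1) of each list (rows). The strongest values are 0.95 for S100b with oligodendrocyte progenitor genes, 0.92 for S100b with immediate early genes, 0.91 for Gpr37l1 with progenitor genes and 0.89 for Gja1 with mural cell and fibroblast genes.

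Fabp7 had its largest r with the 2 genes of choroid plexus and ependyma (r = 0.81, exact permutation p = 0.0597, adjusted 0.382, and rho = 0.49, exact p = 0.356, adjusted 0.599), and r = 0.32 without WT1 and WT3. Kcnj13, which encodes a channel of choroid plexus epithelium, was at 131 CPM in WT1, the replicate highest in Fabp7, and between 1.58 and 16.2 CPM elsewhere. Spag16, a gene of motile cilia, stood at 7.79 CPM in WT1 and at no more than 2.85 CPM elsewhere. WT1 was thus the replicate with most Fabp7, Kcnj13 and Spag16, and the part of choroid plexus or ependymal RNA in the Fabp7 level was not tested.

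The other lists gave smaller values. Microglia and leukocyte genes summed to between 264 and 350.4 CPM in WT and between 333 and 783 CPM in KO, with Fcer1g at 31.5 to 136 CPM. Endothelial genes summed to between 29.4 and 59.4 CPM in WT and between 29.6 and 44.7 CPM in KO, with Cd34 at 18.4 to 58.4 CPM and Ackr1 at 0 to 10.3 CPM, and 4 of the 5 genes in the table were at 0 in at least 1 replicate. Neuronal genes summed to between 554 and 870.1 CPM in WT and between 864 and 1222 CPM in KO, with Dner at 314 to 977 CPM and Map2 at 212 to 282 CPM. Their r with the 4 markers lay between -0.62 and 0.64, and none of these 12 relations, nor those of the mature oligodendrocyte list, had an adjusted p under 0.05 in the exact permutation test.

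Of 23 further astrocyte genes, 14 were in the table and tested. The rest, among them Gfap, Aldh1l1, Slc1a2, Slc1a3, Aldoc and Sox9, were not among the genes analysed, so their levels are not known here. Igfbp2, a binding protein of insulin-like growth factors that choroid plexus and meninges also make, stood at 269.6 CPM in WT1 and between 17.5 and 122 CPM elsewhere. Timp3, a metalloprotease inhibitor, stood at 372 CPM in KO1, 281 in WT2 and between 155 and 165 CPM in the other 4. Prelp, a matrix proteoglycan, stood between 9.36 and 62.5 CPM, and Prex2, a Rac exchange factor, between 35.6 and 87.7 CPM.

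Several genes of this list stood at levels far above Gja1 and Gpr37l1, and oligodendrocytes are known to use some of them. Glul, glutamine synthetase, stood at 12798 CPM in WT1, 20363 in WT2, 12464 in WT3, 21750 in KO1, 14676 in KO2 and 14764 in KO3, so that WT2 and KO1, the replicates low in S100b, were the highest. Kcnj10, the inward rectifier Kir4.1 of both astrocytes and oligodendrocytes, varied little, from 1943 to 2843 CPM. Pea15a, a phosphoprotein of astrocytes, ranged from 14980 to 20478 CPM and Efhd1, a mitochondrial calcium-binding protein, from 4255 to 5643 CPM. Aldh1l2, a mitochondrial folate enzyme, ranged from 178 to 376 CPM.

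Nr2e1, a nuclear receptor of neural stem cells, stood between 0 and 6.84 CPM, with no read in WT2, and Hey2, a Notch target, between 1.24 and 8.55 CPM. Serpine2 is in this list and in the progenitor list. Slc19a3, a thiamine transporter, stood between 0 and 9.82 CPM. Of the genes of ligands and partners, Psap, whose product prosaposin has been proposed as a ligand of GPR37L1, stood between 10318 and 19085 CPM and was highest in KO1. Gje1, a connexin gene of the lens, was below 1 CPM in every replicate and was not tested.

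KO was compared with WT to ask whether astrocyte transcripts in the sorted cells differed with genotype. None of the 4 genes passed the quasi-likelihood test of edgeR after Benjamini-Hochberg adjustment over all 1484 genes, and the replicates of the genotypes overlapped for each. The percentage called among all genes was 0% in either direction at an adjusted p under 0.05, with 59 genes (3.98%) at an unadjusted p under 0.05. DESeq2 called 7 genes (0.472%), none of them one of the 4, and limma-voom called 0. Over all genes tested, every KO replicate lay above every WT replicate in 4.45% and below in 4.04%, 8.49% together.

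Gpr37l1 averaged 175 ± 115 CPM over WT and 302 ± 129 CPM over KO (SD, n = 3), a log2 fold change of 0.78 ± 0.62 (SE) with a 95% interval from -0.75 to 2.32 and an edgeR adjusted p of 0.994. Gja1 had 253 ± 144 CPM in WT and 360.0 ± 326 CPM in KO, a log2 fold change of 0.51 ± 0.79 and an interval from -1.46 to 2.47 (edgeR adjusted p = 0.994). Without KO1 the log2 fold change of Gja1 was -0.56, so its direction came from that replicate. S100b had 4668 ± 1461 CPM in WT and 5324 ± 1626 CPM in KO, a log2 fold change of 0.19 ± 0.31 and an interval from -0.53 to 0.91 (edgeR adjusted p = 0.994). Fabp7 had 49.8 ± 23.5 CPM in WT and 48.5 ± 4.49 CPM in KO, a log2 fold change of -0.041 ± 0.34 and an interval from -0.82 to 0.74 (edgeR adjusted p = 0.994). Without WT1 the log2 fold change of Fabp7 was 0.42, and without WT2 that of S100b was -0.038.

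The intervals of Gja1 and Gpr37l1 reach past 2 log2 units above 0, so a 4-fold rise of either gene lies within them and could not be told from no change. The intervals of Fabp7 and S100b stayed within 1 log2 unit of 0. For Gja1 the KO levels ran from 158 to 737 CPM, much further apart than the counting intervals of these replicates. In bulk RNA of sorted cells, fewer cells of a type and less RNA per cell cannot be told apart.

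**Figure D5:**
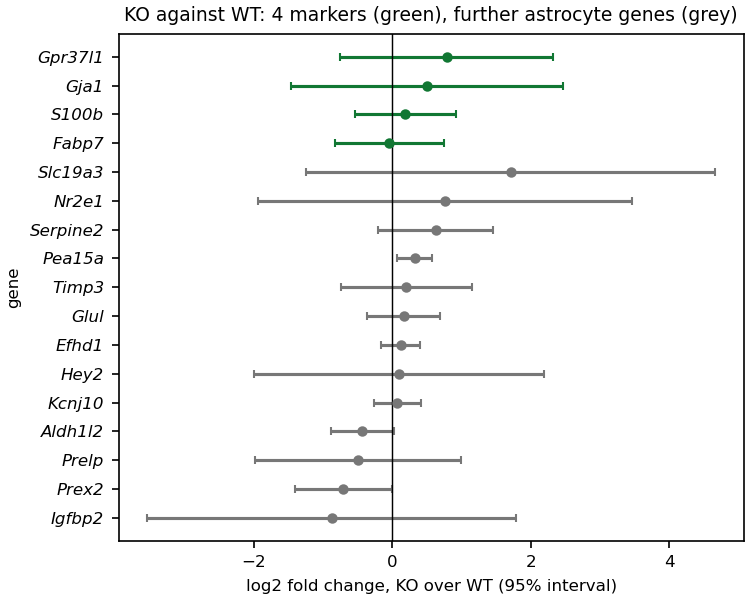
Log2 fold change, KO over WT, from the edgeR fit for the 4 markers (green) and further astrocyte genes (grey), with 95% intervals and a line at no change. The intervals of all 4 markers include 0, and those of Gja1 (-1.46 to 2.47) and Gpr37l1 (-0.75 to 2.32) are the wider ones.

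Of the 14 further astrocyte genes, 0 passed in either direction, 10 had a log2 fold change above 0 and 4 below, and the median was 0.14, beside 49.5% above 0 and a median of -0.0064 over all genes tested. Among them Pea15a alone had KO and WT replicates that did not overlap, with WT at 15992 ± 1096 CPM and KO at 20022 ± 589 CPM (SD, n = 3), a log2 fold change of 0.32 ± 0.11 and an edgeR adjusted p of 0.927. The mature oligodendrocyte genes Adamts4 and Nfasc had larger log2 fold changes, 0.51 ± 0.11 and 0.43 ± 0.14, also with every KO replicate above every WT replicate and with no call (edgeR adjusted p = 0.504 and 0.927). In the other lists the same held for the neuronal gene Dner, at a log2 fold change of 0.84 ± 0.27 (edgeR adjusted p = 0.927), and for Col5a2, at 0.44 ± 0.33 (edgeR adjusted p = 0.994). Every KO replicate lay above every WT replicate in 4.45% of all genes tested. For Prex2 the WT level was 64.8 ± 23.0 CPM and the KO level 39.8 ± 3.59 CPM, with a log2 fold change of -0.71 ± 0.31 and an edgeR adjusted p of 0.994. For Psap the WT level was 13216 ± 2937 CPM and the KO level 15564 ± 3188 CPM, with an edgeR adjusted p of 0.994. At 3 replicates a side, exact permutation of 1 gene gives no two-sided p below 0.1.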

How the data were processed

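The deposited values are raw read counts per Entrez gene and library. The submitters' processing notes name HISAT2, featureCounts, fastp, SAMtools 1.4.1, CASAVA 1.8.2, FastQC, DESeq2 1.38.1 and build mm10. Parameters, annotation and strand use are not stated in the sources used. Of 2398 complete lines, 2226 matched a RefSeq symbol (1 incomplete line was left out). The 2 libraries of each replicate were summed, giving n = 3 per genotype. The genotypes were compared with edgeR 4.0.16 in R 4.3.3 (TMM factors from 0.951 to 1.05, filterByExpr, robust quasi-likelihood fit, adjusted p under 0.05), tested on simulated data. SE is the log2 fold change over the square root of F. Alternatives used RLE or no factors, other filters, DESeq2 1.42.0, limma-voom (limma 3.58.1), a replicate block, single libraries, and each replicate left out. Correlations used SciPy 1.17.1 and exact permutations. The members and lists were chosen with earlier results of these data known. Named genes are the 4 members, the further astrocyte and partner genes, the 2 most abundant genes of each list and the 3 genes most like each member. Some genes of the lists are not reported here. Other named genes (Col3a1, Col5a2, Col18a1, Lum, Dner, Adamts4, Nfasc, Dcn, Tnr, Marcks, Dip2a, Rgs5) were chosen after their values were seen.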

Additional observations from a re-analysis of the deposited data

How the results depend on the processing

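None of the 4 genes was called in any alternative run. DESeq2 moved the counts over all genes from 0 higher and 0 lower to 6 and 1, and no other alternative changed them. Leaving out each replicate in turn gave log2 fold changes from -0.56 to 0.90 for Gja1, 0.39 to 1.34 for Gpr37l1, -0.23 to 0.42 for Fabp7 and -0.038 to 0.41 for S100b. The sign of Fabp7 also changed with limma-voom (0.054), with the replicate block (0.056) and in the second libraries alone (0.081). With all replicates its value lay between -0.13 and 0.081 in every setting, and the cause of the change of sign was not tested. Across genes, deviations from the genotype means correlated at 0.0033, -0.33 and 0.15 between replicates of the same number, and WT2 correlated best with KO1 (0.38), so the numbers were not taken to pair the samples, and the replicate block called 0 genes.

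The r of Gpr37l1 and S100b lay between 0.69 and 0.96 without 1 replicate and between 0.85 and 0.91 in the other settings, and that of Gja1 and S100b between -0.77 and -0.43 without 1 replicate. No pair changed sign in these settings or without 1 replicate, while 3 pairs did without 2 replicates: Gja1 with Gpr37l1 (0.045), Gja1 with Fabp7 (-0.12) and Fabp7 with S100b (-0.066). In settings chosen after seeing the data, r of S100b with the progenitor list lay between 0.92 and 0.97 (adjusted p from 0.0444 to 0.0889), and between 0.86 and 0.99 without 1 gene of the list. The rho of S100b with that list lay between 0.94 and 1.0 (adjusted p from 0.0444 to 0.267). Without 1 gene of the list this rho lay between 0.89 and 1.0, and it was lowest without Tnr. Tnr had 2 reads in WT2 and 5 in KO1. The rho of Gja1 with the mural cell and fibroblast list lay between 0.83 and 1.0 (adjusted p from 0.0444 to 0.594). It also lay between 0.83 and 1.0 without 1 gene of that list. Fabp7, at 153 to 405 reads a replicate, had the widest counting intervals relative to its level.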
